A study of Mus musculus with 2 samples.

Results

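Growth hormone reaches muscle fibres through its receptor, and 9 genes of that route were described here across the nuclei of mouse tibialis anterior (TA) muscle: *Ghr*, *Jak2*, *Stat5a*, *Stat5b*, *Stat3*, *Socs2*, *Cish*, *Socs3* and *Pim1*. They were taken by symbol, and all 9 were among the 32285 genes counted in each library. For each genotype, nuclei of the left and right TA of 2 males aged 6 weeks were pooled into a single library, labelled WT or KO. KO mice carry a Cre transgene driven by the *Myf6* promoter, which is active in muscle fibres, and *Bcl6* alleles with loxP sites around exons 7 to 9 (M-*Bcl6* KO), whereas the WT controls are littermates that carry the same Cre with unmodified *Bcl6* alleles. Each genotype was thus 1 library of pooled animals, so no test between genotypes was possible, and differences between mice, libraries and genotypes cannot be told apart.

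When growth hormone binds GHR, the receptor-bound kinase JAK2 becomes active and phosphorylates STAT5A and STAT5B, which enter the nucleus and switch on target genes. Among those targets are the genes for SOCS2 and CIS (the product of *Cish*), which bind the activated receptor and end the signal, so that both are often read as a record of recent receptor activity as well as its brake. The paper also describes BCL6 as a repressor of *Socs2*, and the source of any *Socs2* difference was not tested here. STAT3 and SOCS3 serve mainly the receptors of the interleukin-6 family, and *Pim1* encodes a serine/threonine kinase made in response to STAT3 and STAT5.

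*Socs2* is the member on which most of the account turns, and the primer pair listed in the study for its RT-qPCR shows which part of the gene was followed outside the sequencing data. On the main spliced transcript of *Socs2* the pair encloses 111 bases.
*Socs2* forward: gcgcgtctggcgaaagccct
*Socs2* reverse: gaaagttccttctggagcctctt
The forward primer lies in exon 2 at chr10:95414851-95414870 (GRCm38, minus strand) and the reverse primer in exon 3 at chr10:95413040-95413062, and all bases of both are in the coding sequence. On the genome the pair spans 1831 bases, so the product of 111 bases comes from spliced RNA, whereas nuclei also hold unspliced RNA. Exact matches elsewhere in GENCODE M21 transcripts were found in 0 genes for the forward primer and in 1 gene, the processed pseudogene *Gm9847*, for the reverse primer.

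The members differ in how much of the gene is intron, which matters for nuclear RNA. *Ghr* (chr15:3317760-3583492, minus strand) is 96.6% intronic over its annotated transcripts, *Jak2* (chr19:29251828-29313080, plus strand) 91.8%, *Stat5b* (chr11:100780731-100850724, minus strand) 92.1% and *Socs2* (chr10:95385362-95417180, minus strand) 70.0%. By the same measure *Cish* (chr9:107296026-107302784, plus strand) is 5.03% intronic and *Pim1* (chr17:29490753-29496112, plus strand) 37.3%. A base counts here as exonic if any annotated transcript has it in an exon, so a single transcript can hold far more intron. The main spliced transcript of *Cish* has 3 exons with 2850 bases in a gene of 6759 bases. That of *Socs2* has 2222 exon bases in 31819, and that of *Pim1* 2698 in 5360. *Stat5a* (chr11:100859351-100885169, plus strand) and *Stat3* (chr11:100885098-100939540, minus strand) are tail-to-tail neighbours whose annotations overlap by 72 bases on opposite strands. *Cish* overlaps the antisense gene *Gm17041*, which held 0 UMIs (unique molecular identifiers, 1 per captured RNA molecule) in the myonuclei of either library, and *Pim1* overlaps the antisense gene *Gm26885*, which held 81 (labelled WT) and 91 UMIs (labelled KO). Whether intronic reads entered the counts is not given in the sources used here, so levels are compared only within a gene.

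STAT5 and STAT3 dimers bind palindromes of the form TTCNNNGAA, which is its own reverse complement, so that both strands are read at once. In RefSeq windows of 250 bases before a gene's start (GRCm38.p6), the letters stood in 7.02% of 32851 windows. Windows were at hand for 8 of the 9 members, 12 windows in all, and 1 of them held the letters, that of *Socs3* (chr11:117969502-117969530, minus strand), shown because it was the single match.
*Socs3* site: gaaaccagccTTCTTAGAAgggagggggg
The capitals mark the palindrome, whose first base lies 154 bases before the start, within an intron of the transcript Socs3-202. *Socs2* was not in the table of windows. The *Cish* window (chr9:107296409-107296658) lies within the annotated gene. A window without the letters does not show that a gene lacks such sites elsewhere.

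The libraries were of like depth, with 11974138 UMIs in 3798 barcodes labelled WT and 12026013 in 4096 barcodes labelled KO, and 6 barcode sequences occurred in both. After filtering, 3674 and 3944 nuclei remained, and myonuclei (the nuclei of muscle fibres) were 2409 (65.6%) and 3093 (78.4%) of them, with a median of 3126 and 2705 UMIs. The study retained fewer nuclei of each library after its own quality control. The 10 myonuclear markers together took 97609 CPM (UMIs per 1000000 UMIs of the class) in myonuclei labelled WT and 113527 CPM in those labelled KO. Myonuclei were grouped by the myosin heavy chain gene with most UMIs in the nucleus: *Myh4* (type IIb, 701 and 612 nuclei), *Myh1* (type IIx, 1155 and 1176), *Myh2* (type IIa, 236 and 483) or no main *Myh* gene (315 and 803). *Myh7*, the slow type, led in only 2 and 19 nuclei, and its group was not compared. A level is the CPM of all UMIs of a class, a change is the log2 ratio of the library labelled KO over the library labelled WT, and brackets give exact 95% intervals that cover counting error only. The median change was −0.14 over the 6976 genes that reached 200 UMIs in myonuclei of both libraries together. Of these, 216 were 2-fold higher and 188 2-fold lower, so that 53.5% of such genes were higher, a share of 65.1% after TMM and 66.3% after median-of-ratios scaling.

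*Bcl6*, the targeted gene, was read first. Its level in myonuclei was 167 CPM (159 to 176) where labelled WT and 502 CPM (488 to 516) where labelled KO, a change of 1.59. The level was thus higher where labelled KO. The counts are per gene and not per exon, so neither the level nor its direction shows whether exons 7 to 9 were present. For this reason the libraries are named by their labels throughout.

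In myonuclei, both feedback genes were higher in the library labelled KO, and the receptor and its kinase were lower. Labelled WT first, *Socs2* gave 633 UMIs (71.7 CPM, 66.2 to 77.5) and 3688 UMIs (383 CPM, 371 to 395), a 5.34-fold higher level (log2 ratio 2.42, 2.30 to 2.54). *Cish* gave 54 UMIs (6.11 CPM, 4.59 to 7.98) and 466 UMIs (48.4 CPM, 44.1 to 53.0), a 7.91-fold higher level (2.98, 2.58 to 3.42). *Ghr* gave 9986 UMIs (1130 CPM, 1108 to 1153) and 5231 UMIs (543 CPM, 528 to 558), a 2.08-fold lower level (−1.06, −1.11 to −1.01). Set against the median change, *Ghr* stood at −0.91. *Jak2* gave 938 UMIs (106 CPM, 99.5 to 113) and 374 UMIs (38.8 CPM, 35.0 to 43.0), a 2.74-fold lower level (−1.45, −1.63 to −1.28). For these 4 genes the intervals of the libraries were apart. *Ghr* was short of 2-fold after TMM scaling (−0.94), whereas the other 3 stayed past it.

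Of the 9 members, 8 had at least 200 UMIs, and of these 2 were at least 2-fold higher and 2 at least 2-fold lower in the library labelled KO. Among all 6976 genes, 3.1% were at least 2-fold higher and 2.69% at least 2-fold lower. By log2 ratio *Cish* ranked 22 and *Socs2* 33 from the top, while *Jak2* ranked 65 and *Ghr* 160 from the bottom. The median over the 8 members was −0.51, against −0.14 over all genes.

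**Figure D1:**
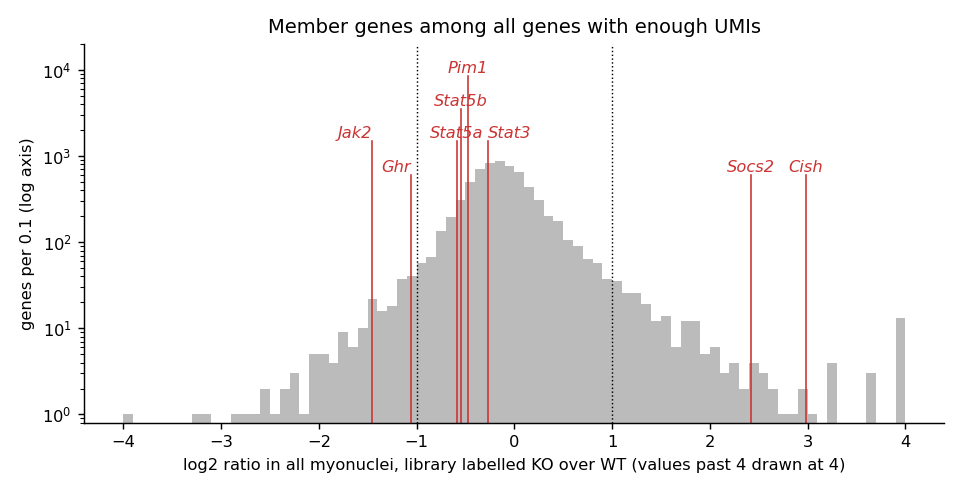
Histogram of the log2 ratio of CPM in all myonuclei, library labelled KO over WT, for the 6976 genes with at least 200 UMIs (x axis, values past 4 drawn at 4; y axis, genes per step of 0.1 on a log scale), with 8 members marked by red lines and 2-fold by dotted lines. *Socs2* (2.42) and *Cish* (2.98) lie in the right tail, *Jak2* (−1.45) and *Ghr* (−1.06) past 2-fold on the left, and the other 4 members lie between.

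The signal transducers and *Pim1* were lower by less than 2-fold. *Stat5b* gave 414 CPM (400 to 427) and 284 CPM (273 to 295), a change of −0.54 (−0.62 to −0.47). *Stat5a*, its close paralogue, gave 219 and 159 UMIs, or 24.8 CPM (21.6 to 28.3) and 16.5 CPM (14.0 to 19.3), a change of −0.59 (−0.89 to −0.29). Both STAT5 genes thus stood lower in the library labelled KO than in the library labelled WT. *Stat3*, which answers interleukin-6 and its relatives, gave 108 CPM (101 to 115) and 89.7 CPM (83.8 to 95.9), a change of −0.27 (−0.41 to −0.14) that was −0.13 relative to the median of all genes. With each nucleus thinned to 1000 UMIs, the *Stat3* change was −0.053, with an interval that includes 0 (−0.29 to 0.19). *Pim1* gave 393 and 308 UMIs, or 44.5 CPM (40.2 to 49.1) and 32.0 CPM (28.5 to 35.7), a change of −0.48 (−0.70 to −0.26). *Socs3* was all but missing, with 1 UMI in the myonuclei labelled WT and 3 in those labelled KO, and no fold is given for counts so low.

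The *Socs2* difference was spread over many nuclei. As deposited, 18.2% of myonuclei labelled WT and 56.4% of those labelled KO had a *Socs2* UMI, and 1.94% of all myonuclei labelled KO had 6 or more (highest 16). With each nucleus thinned to 1000 UMIs, 165 of 2381 nuclei (6.93%, 5.94 to 8.02) and 906 of 3013 nuclei (30.1%, 28.4 to 31.7) had one. If the thinned *Socs2* UMIs of the library labelled KO had fallen at random on its nuclei, 32.7% would have one, beside the 30.1% counted. For *Ghr* the same reading gave 59.0% against 68.5% in the library labelled WT and 33.9% against 40.4% in the library labelled KO. Pericyte- or smooth muscle-like nuclei, which had the lowest thinned *Socs2* share of the non-muscle classes compared, had a thinned *Socs2* UMI in 0.752% and 1.87%, at median depths of 1893 and 2105.5 UMIs.

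**Figure D2:**
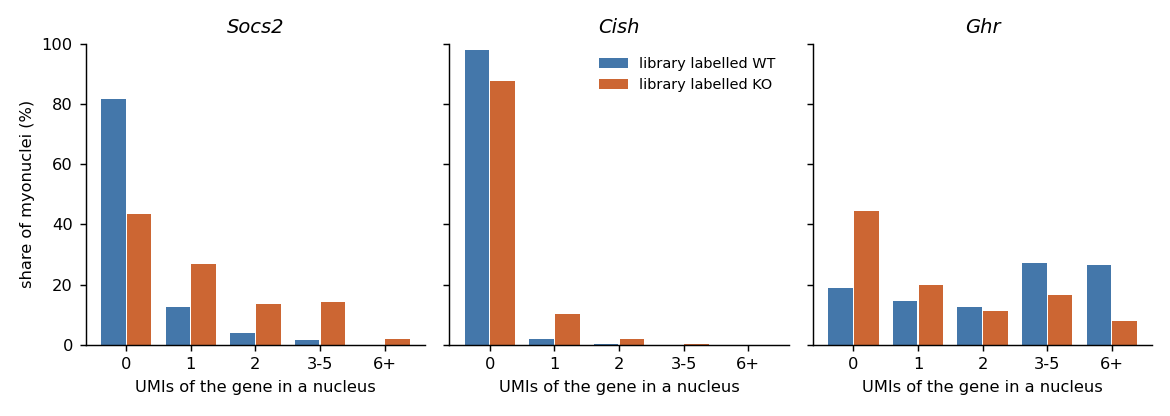
Share of myonuclei (y axis, %) with 0, 1, 2, 3 to 5 or 6 and more UMIs of *Socs2*, *Cish* and *Ghr* (x axis, not thinned), with blue bars for the library labelled WT (2409 nuclei) and orange bars for the library labelled KO (3093 nuclei). Nuclei without a *Socs2* UMI were 81.8% where labelled WT and 43.6% where labelled KO, and nuclei without a *Ghr* UMI were 18.9% and 44.3%.

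Across fibre groups the levels of *Socs2* and *Cish* followed the same order in the library labelled KO, from *Myh2* over *Myh1* to the other groups. *Socs2* in that library was 508 CPM in *Myh2*, 413 in *Myh1*, 305 in *Myh4* and 295 in no main *Myh* myonuclei, where the last pair did not differ beyond counting error (log2 ratio 0.05, −0.12 to 0.22). Labelled WT, it was 84.6 CPM in *Myh2* and 81.1 in *Myh1*, which did not differ beyond counting error (0.06, −0.32 to 0.42), and 58.8 in *Myh4* and 49.1 in no main *Myh* myonuclei. The log2 ratio of *Socs2* (KO over WT by label) had overlapping intervals over the groups, at 2.37 (2.11 to 2.65) in *Myh4*, 2.35 (2.19 to 2.52) in *Myh1*, 2.59 (2.24 to 2.95) in *Myh2* and 2.59 (2.16 to 3.04) in no main *Myh* myonuclei. Among all genes with at least 50 UMIs, 2.67%, 4.11%, 3.34% and 4.33% were 2-fold higher in these 4 groups, in the same order. The log2 ratio of *Bcl6* over the same nuclei was less even, at 2.30 (2.15 to 2.46) in *Myh4*, 1.46 (1.33 to 1.59) in *Myh1* and 0.57 (0.34 to 0.81) in *Myh2* myonuclei.

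*Cish* was low in every group, and its order was steeper than that of *Socs2*. Nuclei labelled WT gave 14 UMIs (15.8 CPM) in *Myh2*, 34 (7.57 CPM) in *Myh1*, 6 (2.40 CPM) in *Myh4* and 0 in no main *Myh* myonuclei. Nuclei labelled KO gave 124 UMIs (74.2 CPM), 231 (57.4 CPM), 43 (24.8 CPM) and 68 (31.7 CPM) in the same groups. The *Myh2* level exceeded the *Myh4* level by 2.72 (1.25 to 4.38) on the log2 scale in the library labelled WT and by 1.58 (1.07 to 2.11) in the library labelled KO. Between libraries *Cish* differed by 2.23 (1.43 to 3.14) in *Myh2*, 2.92 (2.40 to 3.49) in *Myh1* and 3.37 (2.13 to 4.89) in *Myh4* myonuclei, with intervals that overlap. Thinned to 1000 UMIs per nucleus, the *Myh4* ratio was 1.69 with an interval that includes 0 (−0.07 to 3.79). In no main *Myh* myonuclei the level in the library labelled KO was at least 10.1-fold higher, taking the 0 UMIs of the library labelled WT at the limit of 3 counts that a count of 0 allows. On the log2 scale that bound is 3.34, and it was 1.27 after thinning.

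*Ghr*, the receptor gene, was lower in *Myh4* myonuclei than in *Myh1* and *Myh2* myonuclei of both libraries. Its level in nuclei labelled WT was 1323 CPM in *Myh2*, 1266 in *Myh1*, 908 in *Myh4* and 898 in no main *Myh* myonuclei. The levels in nuclei labelled KO were 647, 631, 329 and 464 CPM in the same order. The *Myh2* and *Myh1* levels did not differ beyond counting error in either library (log2 ratio 0.06, −0.03 to 0.15, and 0.04, −0.07 to 0.14). The change was −1.46 (−1.60 to −1.33) in *Myh4* myonuclei, and its interval lay below those of the other groups, which were −1.07 to −0.94 in *Myh1* (2.01-fold lower), −1.03 (−1.15 to −0.91) in *Myh2* and −0.95 (−1.09 to −0.82) in no main *Myh* myonuclei. Among all genes with 50 or more UMIs, 4.42% were 2-fold lower in *Myh4*, 3.71% in *Myh1*, 3.33% in *Myh2* and 4.28% in no main *Myh* myonuclei.

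*Jak2* and *Stat5b* had the opposite fibre order, with the highest levels among named types in *Myh4* and the lowest in *Myh2* myonuclei. *Stat5b* was 624 CPM in *Myh4*, 424 in no main *Myh*, 331 in *Myh1* and 229 in *Myh2* myonuclei labelled WT, and 427, 304, 261 and 167 CPM in those labelled KO. Every neighbouring pair in that order was apart beyond counting error in both libraries. The *Stat5b* change ranged from −0.55 (−0.67 to −0.42) in *Myh4* to −0.34 (−0.46 to −0.22) in *Myh1* myonuclei. *Jak2* was 129 CPM in *Myh4*, 100 in *Myh1* and 59.8 in *Myh2* myonuclei labelled WT and 44.5, 32.6 and 25.7 CPM in those labelled KO, with changes of −1.54 (−1.92 to −1.18), −1.62 (−1.91 to −1.33) and −1.22 (−1.83 to −0.61). Its *Myh1* and *Myh2* levels did not differ beyond counting error where labelled KO (log2 ratio −0.34, −0.87 to 0.17, for *Myh2* over *Myh1*).

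*Stat5a* and *Stat5b*, although paralogues, were placed in opposite order over the fibre types of the library labelled WT. *Stat5a* was 40.6 CPM in *Myh2*, 31.4 in *Myh1* and 14.0 in *Myh4* myonuclei, on 36, 141 and 35 UMIs, and its *Myh2* level exceeded its *Myh4* level by 1.54 (0.82 to 2.25) on the log2 scale. The same contrast for *Stat5b* was −1.44 (−1.66 to −1.23). The *Stat5a* contrast where labelled KO was 0.25 (−0.54 to 1.05), so its order could not be made out there. Its change was −1.13 (−1.87 to −0.40) in *Myh2*, −0.68 (−1.09 to −0.27) in *Myh1* and 0.16 (−0.63 to 0.92) in *Myh4* myonuclei.

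*Pim1*, the kinase gene, was highest in *Myh4* and no main *Myh* myonuclei, and the log2 ratio of its *Myh2* over its *Myh4* level was −3.00 (−4.08 to −2.10) where labelled WT. There its level was 90.5 CPM in *Myh4* and 83.6 CPM in no main *Myh* myonuclei, against 17.2 CPM in *Myh1* and 11.3 CPM in *Myh2* myonuclei. Where labelled KO it was 57.8 CPM (47.0 to 70.3), 48.5 and 20.4 CPM in the first 3 groups, and *Myh2* myonuclei had 20 UMIs. The change was −0.65 in *Myh4* and −0.79 (−1.22 to −0.35) in no main *Myh* myonuclei, and 0.25 (−0.22 to 0.72) in *Myh1* and 0.08 (−1.08 to 1.34) in *Myh2* myonuclei. *Stat3* gave changes of −0.47 (−0.69 to −0.24) in *Myh1*, −0.62 (−1.02 to −0.22) in *Myh2* and −0.48 (−0.78 to −0.17) in no main *Myh* myonuclei but 0.20 (−0.06 to 0.45) in *Myh4* myonuclei, where its level was 116 and 133 CPM.

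**Figure D3:**
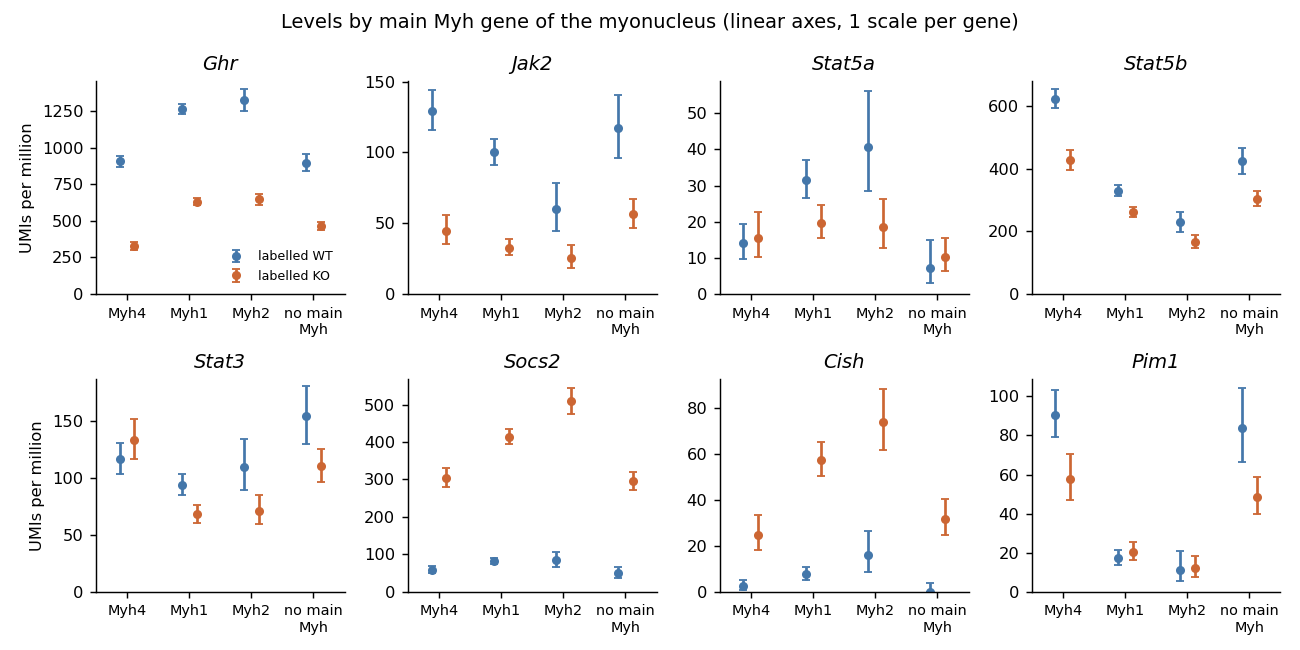
Level (y axis, CPM, linear and on a scale of its own for each gene) of 8 members in myonuclei grouped by main *Myh* gene (x axis), with blue points for the library labelled WT, orange points for the library labelled KO and bars for exact Poisson 95% intervals. *Socs2* and *Cish* are higher in orange in every group, and their orange points are highest in *Myh2*. *Stat5b*, in contrast, falls from *Myh4* to *Myh2* in both colours, and *Pim1* is high only in *Myh4* and no main *Myh* myonuclei.

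Myonuclei of the fibre ends and synapses were few. Myotendinous junction-like nuclei (25 and 30), named by *Col22a1* and other markers, had *Ghr* at 667 and 147 CPM, on 73 and 15 UMIs, a change of −2.19 (−3.09 to −1.37), and *Socs2* at 2 and 23 UMIs. Neuromuscular junction-like nuclei (15 and 8) had *Socs2* at 377 CPM (227 to 588) and 965 CPM (597 to 1475), on 19 and 21 UMIs. That level in the library labelled WT lay above the range of the 4 fibre groups of the same library, but its 19 UMIs came from 6 of 15 nuclei, and after thinning 1 of 14 nuclei had one (7.14%, 0.181 to 33.9), within the 3.59% to 9.44% of the fibre groups.

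Outside the muscle fibres, *Ghr* was 2-fold lower in none of the classes compared. It was high in fibro-adipogenic progenitor (FAP)-like nuclei, at 1182 CPM (1118 to 1248) where labelled WT and 1052 CPM (978 to 1130) where labelled KO, a change of −0.17 (−0.30 to −0.04). In muscle stem cell (MuSC)-like nuclei it was 772 and 923 CPM (0.26, −0.04 to 0.55). It was 321 and 250 CPM in endothelial-like (−0.36, −0.81 to 0.08) and 256 and 239 CPM in pericyte- or smooth muscle-like nuclei (−0.10, −0.57 to 0.36). Nuclei like those of tendon cells (tenocyte-like) came nearest to the myonuclei, with 1832 and 993 CPM (−0.88, −1.17 to −0.60), and macrophage-like nuclei had 2 and 0 UMIs. Genes 2-fold lower were 2.06% of all in FAP-like, 2.63% in MuSC-like, 3.18% in endothelial-like, 1.95% in pericyte- or smooth muscle-like, 2.77% in macrophage-like and 3.93% in tenocyte-like nuclei. Where labelled WT, myonuclei and FAP-like nuclei held *Ghr* at levels that did not differ beyond counting error (log2 ratio 0.06, −0.02 to 0.15), while where labelled KO the myonuclei stood below the FAP-, tenocyte- and MuSC-like nuclei.

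*Socs2*, in contrast, was higher in the library labelled KO in non-muscle classes too. FAP-like nuclei had 82 and 116 UMIs (74.8 and 162 CPM), a change of 1.12 (0.70 to 1.54). MuSC-like nuclei had 15 and 63 UMIs (54.4 and 338 CPM), a change of 2.64 (1.81 to 3.56), and tenocyte-like nuclei 14 and 45 UMIs (84.6 and 298 CPM), a change of 1.82 (0.92 to 2.80). These were the 3 non-muscle classes with at least 50 *Socs2* UMIs, and *Socs2* was past 2-fold in each, though the FAP- and tenocyte-like intervals reached below it, beside 1.41%, 1.75% and 2.93% of all genes in FAP-, MuSC- and tenocyte-like nuclei, and 1.48%, 2.28% and 1.23% in endothelial-, macrophage- and pericyte- or smooth muscle-like nuclei. Endothelial-like nuclei had 15 and 26 UMIs (1.33, 0.35 to 2.35), macrophage-like nuclei 2 and 9, and pericyte- or smooth muscle-like nuclei 6 and 8 (0.78, −0.94 to 2.59).

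Myonuclear markers were also counted in these classes, and the 10 of them gave 2326 and 4349 CPM in FAP-like, 11701 and 10157 CPM in MuSC-like and 8185 and 9609 CPM in tenocyte-like nuclei of the libraries labelled WT and KO. The same markers gave 2942 and 3087 CPM in endothelial-like, 4297 and 6161 CPM in pericyte- or smooth muscle-like and 2657 and 3977 CPM in macrophage-like nuclei. The part of RNA from myonuclei in the *Socs2* levels of these classes was not tested. *Cish* was counted at most 7 times in a non-muscle class and library. Those 7 UMIs were in endothelial-like nuclei labelled WT, at 17.8 CPM (7.16 to 36.7), which exceeded the 6.11 CPM of myonuclei of that library by 1.54 (0.16 to 2.68) on the log2 scale, and the same class had 3 UMIs where labelled KO. In MuSC-like nuclei, where *Socs2* differed by 2.64, *Cish* had 1 UMI in each library, and its level where labelled KO, 5.37 CPM (0.136 to 29.9), lay below the 48.4 CPM (44.1 to 53.0) of the myonuclei. FAP-like nuclei had 2 and 1 UMIs, with an upper bound of 7.80 CPM where labelled KO.

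*Stat5b* and *Stat3*, whose products carry signals to the nucleus, stayed within 2-fold in the 6 non-muscle classes compared, except *Stat5b* in tenocyte-like nuclei. *Stat5b* was 375 and 357 CPM in FAP-like nuclei (−0.07, −0.30 to 0.16) and 377 and 376 CPM in MuSC-like nuclei (interval of the change −0.46 to 0.45), with a 2-fold lower level in tenocyte-like nuclei (411 and 192 CPM, −1.10, −1.78 to −0.45). *Stat3* was 282 and 197 CPM in FAP-like nuclei (−0.51, −0.81 to −0.22), and its interval included 0 in the other non-muscle classes. Among the classes compared *Stat5a* was highest in MuSC-like nuclei, at 68.9 and 69.8 CPM on 19 and 13 UMIs, though not beyond counting error over the next class in either library (log2 ratio 1.04, −0.34 to 2.66, over macrophage-like nuclei where labelled WT and 1.40, −0.30 to 3.47, over tenocyte-like nuclei where labelled KO), and it had 19 or fewer UMIs per library in each of the other non-muscle classes. *Jak2* was 110 and 81.2 CPM in FAP-like (−0.44, −0.92 to 0.02) and 183 and 114 CPM in endothelial-like nuclei (−0.68, −1.34 to −0.06). *Socs3* gave at most 5 UMIs in any class.

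**Figure D4:**
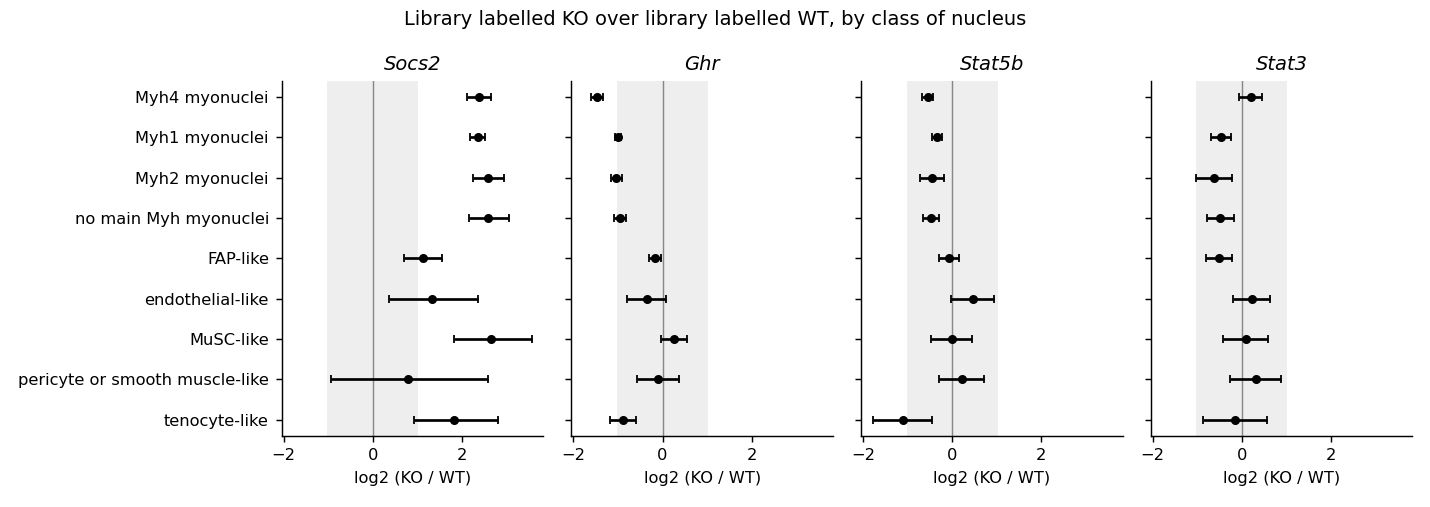
Log2 ratio of CPM, library labelled KO over WT (x axis, shared), of *Socs2*, *Ghr*, *Stat5b* and *Stat3* in 4 groups of myonuclei and 5 non-muscle classes (y axis), with exact 95% intervals for counting error and a grey band within 2-fold. *Socs2* lies right of 0 in all classes, with an interval that includes 0 only in pericyte- or smooth muscle-like nuclei, whereas *Ghr* lies at −0.95 or below in the 4 myonuclear groups and at −0.88 or above in the other classes.

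Whether single nuclei that carried *Socs2* also carried *Cish* was asked after thinning to 1000 UMIs, since deeper nuclei show more of every gene. Of the library labelled KO, 43 of 3013 myonuclei held both, where 39.4 would if the genes were independent. *Cish* was found in 4.75% (3.46 to 6.34) of nuclei with *Socs2* and in 4.18% (3.36 to 5.12) of nuclei without it. Without thinning the shares were 15.0% (13.3 to 16.7) and 8.83% (7.37 to 10.5), and 261 nuclei held both, so the shares and the gap between them were larger at full depth. By fibre group, the thinned shares with and without *Socs2* were 1.91% and 1.60% in *Myh4*, 5.36% and 5.67% in *Myh1*, 6.59% and 8.84% in *Myh2* and 4.17% (1.82 to 8.04) and 1.76% (0.849 to 3.22) in no main *Myh* myonuclei, with intervals that overlap in each. Of the library labelled WT, 0 of 165 thinned myonuclei with *Socs2* had *Cish*, which allows a share of up to 1.82% at 3 counts of the total and 2.21% by the exact interval, against 0.632% of those without. Pericyte- or smooth muscle-like nuclei had *Cish* in 0 of 133 thinned nuclei labelled WT, which allows up to 2.26% at 3 counts of the total and 2.74% by the exact interval, and in 1 of 107 labelled KO. Joint detection of *Socs2* with *Ghr* was likewise close to independence, with *Ghr* in 34.5% (31.5 to 37.7) of nuclei with *Socs2* and 33.6% (31.5 to 35.6) of the rest in the library labelled KO.

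**Figure D5:**
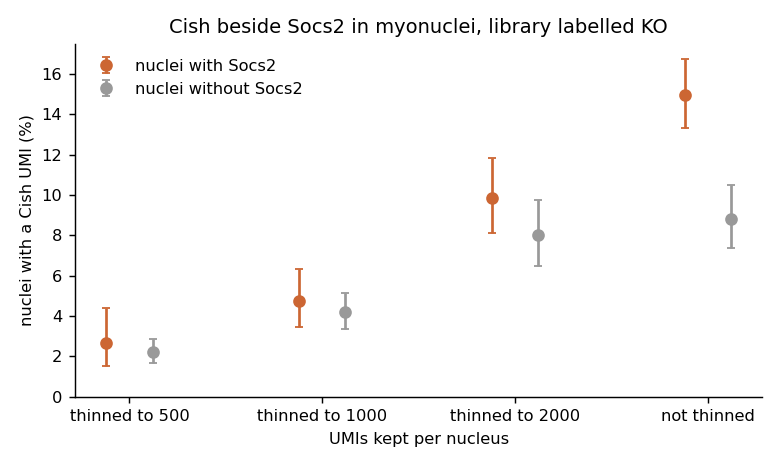
Share of myonuclei of the library labelled KO with a *Cish* UMI (y axis, %) among nuclei with *Socs2* (orange) and without it (grey), at 3 fixed depths and without thinning (x axis), with exact 95% intervals. The intervals overlap at 500, 1000 and 2000 UMIs per nucleus and are apart without thinning, at 15.0% and 8.83%.

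Nuclei of the library labelled KO were also split by *Meg3*, a long noncoding RNA of an imprinted locus, with a UMI in 2634 of its myonuclei and none in 459 (216 and 2193 in the library labelled WT). *Socs2* was 378 CPM (365 to 391) with *Meg3* and 415 CPM (380 to 453) without it, and *Cish* 47.2 CPM (42.7 to 52.1) and 56.3 CPM (43.8 to 71.2). Both subsets of nuclei thus held *Socs2* far above the 71.7 CPM of the library labelled WT. The split was made without thinning, and the nuclei without a *Meg3* UMI had a lower median depth (2249 against 2771.5 UMIs). Lack of a *Meg3* UMI therefore need not mean lack of *Meg3* RNA. *Ghr* was 536 and 592 CPM in the same subsets, and *Stat5b* 293 CPM (281 to 304) and 222 CPM (196 to 250).

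Other genes of the route were read from 5 lists in all myonuclei, with the same minimum of 200 UMIs. Their counts stand beside 3.1% of all genes 2-fold higher and 2.69% 2-fold lower. Of 20 other cytokine and hormone receptor genes 7 had enough UMIs, 0 were 2-fold higher and 1 was 2-fold lower, and the list median was −0.09. The lower gene was *Lifr* (the leukaemia inhibitory factor receptor), at 79.6 and 38.7 CPM (−1.04, −1.22 to −0.86). *Lifr* was short of 2-fold after TMM scaling, which raised every ratio by 0.11. The prolactin receptor gene *Prlr*, named after its values were seen, had 49 and 132 UMIs (1.30, 0.82 to 1.81), too few for the count. Of 7 other JAK and STAT genes 3 had enough UMIs and 0 passed 2-fold, with a median of 0.05 and a range from −0.35 to 0.12. Of 9 other SOCS genes and partners of the SOCS box in protein breakdown 6 had enough UMIs and 0 passed 2-fold, with a median of −0.13 and a range from −0.31 to 0.62. Of 16 other brakes on JAK signalling, such as phosphatase and PIAS genes, 10 had enough UMIs and 0 passed 2-fold, with a median of −0.21 and a range from −0.43 to 0.31. Among the SOCS genes with enough UMIs, *Socs2* and *Cish* were thus the ones past 2-fold.

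Of 18 other genes known as STAT5 or STAT3 targets, 8 had enough UMIs, and 3 were at least 2-fold higher, beside 3.1% of all genes, and 0 lower. They were *Bcl2l1*, which encodes the survival protein BCL-XL, at 23.7 and 84.5 CPM (1.84, 1.62 to 2.06), *Bcl6* itself, and *Cdkn1a*, which encodes the cell cycle inhibitor p21, at 9.17 and 23.4 CPM (1.35, 0.98 to 1.73). *Bcl6* is the targeted gene, so its level is not read as that of a raised target. The paper cites growth hormone as a suppressor of *Bcl6* transcription through STAT5. The list median, *Bcl6* included, was 0.50, against −0.14 over all genes, and the range was from −0.34 to 1.84. *Igf1*, a growth factor gene known as a growth hormone target, had 121 and 62 UMIs in all myonuclei (−1.09, −1.56 to −0.64). These were too few for the count, and the gene is given after its values were seen. It had 74 and 15 UMIs in *Myh1* (−2.14, −3.05 to −1.33) and 18 and 38 UMIs in *Myh2* myonuclei (0.16, −0.68 to 1.06).

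Over 20 points (4 groups of myonuclei and 6 non-muscle classes in each library), the genes whose log2(CPM + 1) was most like that of *Ghr* among 8641 genes were *Mpdz*, a multi-PDZ scaffold gene (Pearson r 0.96), *Yap1*, the Hippo pathway co-activator gene (0.93), and *Gm14634* (0.93). Those nearest to *Socs2* were *Gm12536* (0.77), *Erc2* (0.77) and *Slc25a36* (0.76), and those nearest to *Cish* were *Lcmt2* (0.78), *Klhdc3* (0.76) and *Myl12b* (0.71). *Socs2* and *Cish* correlated at 0.52, and *Socs2* and *Ghr* at 0.33. Points of 1 library share its depth and preparation, and these values are a description only.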

How the data were processed

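Values are raw UMI counts of each gene in each called nucleus as the authors deposited them, whole numbers without normalization, made with Cell Ranger 7.0.0 and with mm10 as the build per the labels. The methods name a 10x 3′ kit and the labels the 10x Multiome kit. Nuclei were kept with 200 to 5000 genes and at most 5% mitochondrial UMIs. Scrublet (scanpy 1.11.5) ranked nuclei by doublet score, and a top share of 0.8% for each 1000 barcodes was left out (115 and 134), as the threshold it sets itself marked 46 and 4. Seurat 5.3.0 in R 4.3.3 integrated the libraries (RPCA, 2000 variable genes, 30 components, resolution 0.5) without the members and listed genes (79) and 1285 genes that differed 2-fold in myonuclei. A cluster was myonuclear at 30000 or more CPM of 10 markers, and otherwise named by at least 3 detected markers with 1 among its 10 leading genes. Lymphatic endothelial-like nuclei (43 and 28) and 12 and 11 unnamed nuclei were not compared.

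No test was run, as each genotype was 1 library. Intervals (Poisson, Clopper-Pearson, and conditional on the total for ratios) are exact at 95% and cover counting error only. At this depth a ratio on 9986 and 5231 UMIs (*Ghr*) had an interval from −1.11 to −1.01, and one on 54 and 466 (*Cish*) from 2.58 to 3.42. Genes were named as the 9 members, *Bcl6*, *Meg3*, class markers, list genes past 2-fold with at least 200 UMIs, and the 3 genes most like *Socs2*, *Cish* and *Ghr*. *Prlr* and *Igf1*, under 200 UMIs, were added after their values were seen. Members and lists were chosen with earlier results of these data known. Of the gene identifiers, 32158 of 32285 matched GENCODE M21. The procedures were tested on simulated data. Alternatives were no doublet removal, a 1% mitochondrial limit, at least 500 genes, myonuclei by marker UMIs, TMM (edgeR 4.0.16) and median-of-ratios scaling, means over nuclei, equal weights of fibre groups, a stricter *Myh* rule and other depths. Python 3.11.15, numpy 2.4.6, scipy 1.17.1 and pandas 2.3.3 were used with seed 1.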

Additional observations from a re-analysis of the deposited data

How the results depend on the processing

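All 102 log2 ratios computed under alternatives kept the direction of the value they stand for, and 0 reversed. TMM and median-of-ratios scaling raised every ratio by 0.11 and 0.13, which put *Ghr* at −0.94 and −0.93, short of 2-fold, and *Stat5b* at −0.43 and −0.42, and median-of-ratios scaling put *Socs2* at 2.54. As means over nuclei *Ghr* was −1.11 and *Stat3* −0.072, and with fibre groups weighted equally *Stat5b* was −0.47. Thinned to 1000 UMIs, *Ghr* was −1.16, *Stat5a* −0.97 and *Stat3* −0.053 (an interval that includes 0). *Cish* in *Myh4* myonuclei was then 1.69 (an interval that includes 0) and the bound of *Cish* in no main *Myh* myonuclei 1.27, the last pair on few UMIs. The share of *Socs2* nuclei with *Cish* moved with depth by construction, to 2.69% at 500, 9.86% at 2000 UMIs and 15.0% without thinning in the library labelled KO, and to 2.37% at 2000 UMIs and 3.88% without thinning in the library labelled WT. Where not named, the cause of a move was not tested. Doublet removal, the mitochondrial limit, the gene minimum, the stricter *Myh* rule and myonuclei taken by marker UMIs moved none of these values past its interval or, for the bound, by 1.5-fold. *Socs3* gave no ratio under any setting. No paired analysis was possible because each genotype is 1 library and the labels give no replicate numbers. Leaving out a library leaves no comparison. *Cish* outside the fibres, *Stat5a* by group and *Socs3* are limited by depth.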
